A study of Mus musculus with 6 samples.

Results

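The clustered histone genes were examined in day 2 epiblast-like cells (EpiLCs) with and without Smad2 and Smad3. Members were the genes of the deposited expression table whose symbol begins with Hist1, Hist2, Hist3 or Hist4, with 1 row kept per symbol, the one with the highest total. This gave 67 of 24288 gene symbols, and all 67 passed the filter on low reads and were tested. By class they comprised 6 H1, 18 H2a, 18 H2b, 12 H3 and 13 H4 genes. Of these, 54 lie in the Hist1 cluster on chromosome 13, 10 in the Hist2 cluster on chromosome 3, 2 in the Hist3 cluster on chromosome 11 and 1, Hist4h4, on chromosome 6 (mm10).

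Histones H2A, H2B, H3 and H4 form the core of the nucleosome around which DNA is wrapped, and H1 binds the DNA between nucleosomes. Cells make most of this protein while DNA is being copied, from clustered genes that have no introns and whose mRNAs end in a short stem-loop in place of a poly(A) tail. The stem-loop is bound by Slbp, which is required to process, export and translate these mRNAs. RNA selected by its poly(A) tail largely misses such transcripts, whereas the libraries used here were made from total RNA depleted of ribosomal RNA.

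The wild-type (WT) group comprised CCE embryonic stem cells of strain 129/Sv//Ev, and the double knockout (DKO) group a single clone, KT15.1F6, made from Smad2-null cells by removing exon 1 of Smad3 with a Cas9 nickase. Cells of both genotypes were cultured in N2B27 medium with 12 ng/ml Fgf2, 20 ng/ml activin A and 1% knockout serum replacement for 48 h, so the control cells also received activin A. Each genotype is represented by 3 libraries from independent differentiations of 1 line, and the effect of the genotype and other differences between the lines cannot be told apart. The comparison asks whether histone mRNA of each class changes when cells that cannot signal through Smad2 and Smad3 are taken towards the primed state. In bulk RNA, fewer cells in S phase and less histone RNA per cell cannot be told apart.

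Values are normalized reads, that is read counts over gene bodies divided by 1 size factor per library, and errors are SDs over 3 libraries unless named as a standard error (SE). Recovered depth ranged from 57644143 to 63046034 reads per library. Smad3 averaged 839 ± 37.0 in WT and fell to 23.6 ± 6.16 in DKO (log2 fold change -5.12, SE 0.13), while Smad2, whose mutant allele still gives reads, stood at 4520 ± 86.3 and 5062 ± 109. The EpiLC markers Pou5f1, Otx2 and Dnmt3b were abundant in both groups, and 5 of 9 EpiLC and pluripotency markers were called changed, beside 15.4% of all genes tested, Fgf5 and Pou3f1 lower and Sox2, Zfp42 and Klf2 higher. Summed fibroblast markers spanned 1624 to 1689 normalized reads in WT and 521 to 571 in DKO, with 2 of 6 tested called lower, Dcn and Col1a2, and Postn at 0 in every WT library. Dcn made up most of this sum, at 1330 ± 51.3 in WT and 300 ± 16.9 in DKO. Col3a1, Thy1 and Pdgfrb had positive log2 fold changes and Col1a1 a negative one, and none of these passed the test. Summed extra-embryonic markers spanned 1767 to 1873 in WT and 3026 to 3257 in DKO, with 6 of 10 tested called higher (Cdx2, Gata2, Gata3, Gata6, Eomes and Krt8), while Elf5 and Ttr were near 0 in both groups. Whether these cell type differences bear on the histone values was not tested.

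The stem-loop is the sequence that sets these mRNAs apart, so the variants found in the members are shown here. The sense strand of GENCODE M21 transcripts (GRCm38, the mm10 assembly) was searched for a stem arm GGNNNT of 6 bases, a loop TNTN of 4 bases and a closing arm ANNNCC that is fully complementary to the first. This was found in 45 of the 67 members and in 18 of 20530 other genes (0.0877%). Of the other 22 members, 13 have an annotated transcript with no base after the stop codon, so the stem-loop could not be looked for in these. In the lines that follow, each transcript is written 5′ to 3′ with 5 flanking bases on either side, and capitals mark the stem-loop.
Hist1h2ab: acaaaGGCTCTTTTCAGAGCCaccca
Hist1h4d: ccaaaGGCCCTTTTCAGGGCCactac
Hist1h1t: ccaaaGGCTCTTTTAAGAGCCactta
Hist2h4: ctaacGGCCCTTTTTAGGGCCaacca
Hist1h4b: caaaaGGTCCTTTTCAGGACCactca
Hist1h4a: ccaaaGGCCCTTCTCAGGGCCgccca
Hist1h3g: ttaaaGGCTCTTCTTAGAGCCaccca
Hist2h2ac: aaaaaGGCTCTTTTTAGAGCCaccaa
The stem-loop of Hist1h2ab was shared letter for letter by 25 members of the H1, H2a, H2b and H3 classes. That of Hist1h4d was shared by 7 H4 members, Hist4h4 among them. That of Hist1h1t occurred in 6 members of the H1, H2b and H3 classes, that of Hist2h4 also in Hist1h4i, and that of Hist1h4b also in Hist1h4j. The remaining 3 lines each occurred in 1 member. All 12 stem-loops found in H4 genes thus had stems of other bases than those of H1, H2a, H2b and H3 genes.

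Promoters were compared over 300 bases, from 250 before to 50 after the start site (RefSeq, GRCm38.p6), for the 62 members with an entry. Hist1h2bc, Hist1h3a, Hist1h3f, Hist2h2be and Hist2h4 had none. Searches covered both strands. The octamer ATTTGCAT, the site of Oct factors and a known element of H2b promoters, occurred in 7 of 18 H2a and 6 of 16 H2b promoters, in none of the H1, H3 and H4 promoters, and in 1.71% of 26963 other promoters. The TATA box letters TATAAA occurred in 35 of 62 (56.5%), against 14.1% of other promoters. The letters CCAAT occurred in every H1, H2a, H2b and H3 promoter with an entry but in 3 of 12 H4 promoters, against 37.8% of other promoters. Windows of close neighbours that start in opposite directions overlap, so 1 site can count for both genes. Hist1h2ah and Hist1h2bk share an octamer in this way, as do Hist1h2ae and Hist1h2bg, and Hist1h2aa and Hist1h2ba. Hist1h2ak and Hist1h2bn share a TATA box. The promoters counted thus do not stand for separate sites. The promoters printed here belong to Hist2h2ac (chr3:96220831-96221130, minus strand) and Hist1h2ba (chr13:23934107-23934406, minus strand), which showed the largest decreases of the H2a and H2b genes with at least 100 normalized reads, and to Hist4h4 (chr6:136804382-136804681, minus strand), the 1 member that was higher in DKO by adjusted p. Capitals mark octamers and TATA boxes.
Hist2h2ac: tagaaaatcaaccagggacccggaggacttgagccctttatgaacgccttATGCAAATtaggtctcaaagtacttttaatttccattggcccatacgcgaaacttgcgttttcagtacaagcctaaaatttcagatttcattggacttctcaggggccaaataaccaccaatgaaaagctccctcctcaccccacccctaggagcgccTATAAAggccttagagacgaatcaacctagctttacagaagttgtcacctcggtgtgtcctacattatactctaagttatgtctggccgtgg
Hist1h2ba: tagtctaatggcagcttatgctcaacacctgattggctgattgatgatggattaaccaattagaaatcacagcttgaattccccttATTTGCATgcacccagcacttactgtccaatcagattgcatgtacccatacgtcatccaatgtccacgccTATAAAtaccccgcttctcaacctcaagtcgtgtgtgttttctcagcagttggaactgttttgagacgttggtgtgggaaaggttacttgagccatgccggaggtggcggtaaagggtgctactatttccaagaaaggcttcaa
Hist4h4: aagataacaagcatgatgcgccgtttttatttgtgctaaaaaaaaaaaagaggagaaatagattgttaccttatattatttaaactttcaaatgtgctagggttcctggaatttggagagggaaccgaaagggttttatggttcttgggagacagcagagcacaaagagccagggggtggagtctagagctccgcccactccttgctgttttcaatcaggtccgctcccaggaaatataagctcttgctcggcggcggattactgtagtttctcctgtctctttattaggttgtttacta
The window of Hist2h2ac and that of Hist1h2ba each held an octamer, a TATA box and CCAAT, and none of these letters was found in the window of Hist4h4.

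Histone mRNA was abundant in both genotypes. The 67 genes took 0.541% to 0.558% of the reads in WT and 0.509% to 0.537% in DKO. Among WT libraries the highest levels per kilobase of counted gene body were those of Hist2h2bb (21153 ± 102 normalized reads per kb), the linker histone Hist1h1a (20939 ± 371) and Hist1h4d (20243 ± 562), and the first and second of these did not differ beyond their spread. Median WT levels over the members averaging 100 or more normalized reads were 9631 per kb for H1, 2982 for H2a, 3312 for H2b, 4498 for H3 and 9056 for H4. H2a genes were thus the least covered class by median level, and Hist3h2a was the highest among them at 7232 ± 224 per kb. Hist2h2bb, Hist1h1a, Hist1h4d and Hist3h2a have little or no sequence shared with transcripts of other genes, whereas several H2a members share most of theirs. Hist1h1t and Hist1h2aa also share none, yet lay under their class medians. Whether the handling of reads that map to several places affects this order was not tested. Gene bodies had a median span of 492 bases, but 6 members span over 1000 bases in the RefSeq annotation, up to 37455 for Hist1h2be, so their levels per kb are low by construction. The remaining 11 members had means under 100 normalized reads.

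Between the genotypes, histone mRNA changed little. A call required both a limma p under 0.05 after Benjamini-Hochberg adjustment and a change of more than 1.5-fold. By this rule 1 of the 67 members, the H4 gene Hist2h4, was called, and it fell. The count tests of edgeR and DESeq2 also called 1 member, the same gene. Over all 17038 genes tested, 15.4% were called. Among the 56 members averaging 100 or more normalized reads the count was 1 (1.79%), beside 10.1% of the 11930 genes of that level. The 95% intervals of the log2 fold change lay inside 1.5-fold in both directions for 54 of these 56 members, the exceptions being Hist2h4 and Hist1h1t. The same held for 85.0% of all genes of that level. Among these 56 members, DKO means ranged from 66.4% of WT, for Hist2h4, to 106% of WT, for Hist4h4.

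The small differences that remained pointed downwards. The log2 fold change was negative for 57 of 67 members, with a median of -0.09, beside 0.00 over all genes tested. By adjusted p alone 27 members (40.3%) were lower in DKO, beside 26.5% of all genes, and 1 (1.49%), Hist4h4, was higher, beside 26.9%. All 3 DKO libraries lay below all 3 WT libraries for 30 members (44.8%), beside 29.3% of all genes, and above them for 1 member (1.49%), beside 29.7%. The count of lower members by adjusted p was 17 of 40 when the 27 members were left out of which over 50% of 75-base windows also occur in a transcript of another gene. Windows were taken over the whole annotated transcript, which can extend past the counted body, so genes with shared bodies can remain among the 40. Members of a class share sequence and the libraries share their normalization, so these counts do not stand for independent events. Before adjustment, limma gave 4 H1, 12 H2a, 6 H2b, 4 H3 and 11 H4 genes a p under 0.05. The share of all genes at that p was not computed, so these counts cannot be read as an excess.

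**Figure D1:**
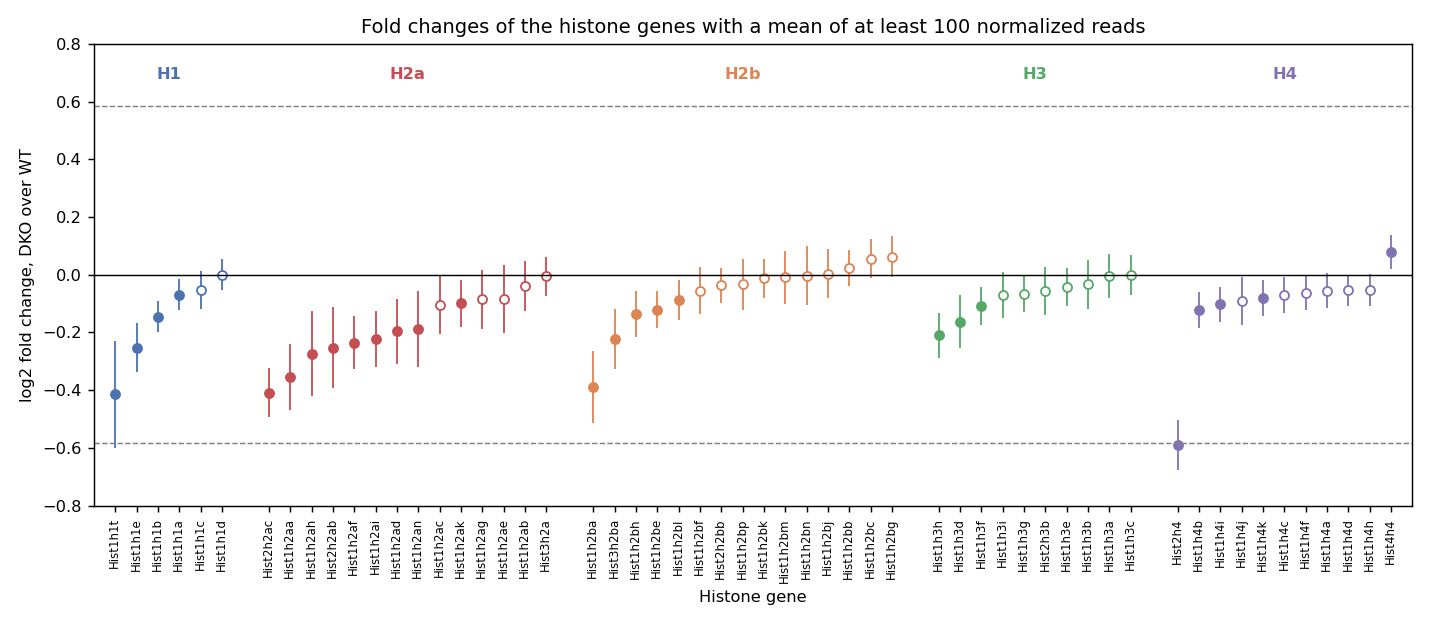
Log2 fold change in DKO over WT (y axis, limma) for the 56 histone genes averaging 100 or more normalized reads, ordered by class and size on the x axis. Bars are 95% intervals, filled points have an adjusted p under 0.05, and dashed lines mark 1.5-fold. Hist2h4 lies at the lower line, Hist4h4 is the 1 filled point above 0, and no other point reaches either line.

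Of the H1 genes, which encode linker histones, 4 of 6 (66.7%) were lower by adjusted p, beside 26.5% of all genes. None was called, and the median log2 fold change was -0.11. Hist1h1a, the most abundant, measured 15461, 15918 and 15421 normalized reads in WT and 15546, 14620 and 14452 in DKO. The groups overlap, and the log2 fold change of -0.07 (SE 0.03) passed limma's test at an adjusted p of 0.028. That pass was lost without DKO replicate 2, DKO replicate 3 or WT replicate 2 (limma adjusted p 0.14 in each) and without the filter on low reads (0.057). Hist1h1d had nearly equal means, 9725 ± 220 and 9728 ± 279 (95% interval -0.05 to 0.05). Hist1h1e measured 3187, 3386 and 3705 in WT and 2801, 3015 and 2795 in DKO. Each of its DKO values lay below each WT value, with a log2 fold change of -0.25 (SE 0.04, adjusted p 9.8e-06 by limma).
The largest H1 difference was that of Hist1h1t, the testis linker histone, which was also the least abundant of the class. It measured 221, 222 and 236 normalized reads in WT and 182, 151 and 177 in DKO, without overlap. The log2 fold change was -0.41 (SE 0.09, adjusted p 0.00037 by limma). Hist1h1c, 5743 ± 259 in WT and 5535 ± 194 in DKO, did not pass the test (adjusted p 0.17 by limma). Hist1h1b, named after its values were seen, was also lower by adjusted p, at a log2 fold change of -0.15. The 6 values of the summed class were 42756, 44397 and 44018 in WT and 42555, 41225 and 40180 in DKO, so the DKO sum was 94.5% of WT and the highest DKO library lay just under the lowest WT library.

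The H2a class showed the largest decrease by median over all members, with a log2 fold change of -0.19 over 18 genes. By adjusted p 11 of 18 (61.1%) were lower, beside 26.5% of all genes, and none was called. Without genes of over 50% shared windows, H1 was lowest at -0.11 beside -0.10 for H2a. That H2a value is Hist1h2ac, whose share of 9.68% was taken over a transcript of 2482 bases, beside a counted body of 487 bases. How much of the counted bodies is shared was not tested, so the order of the 2 classes is uncertain. Hist2h2ac (chr3:96220413-96220880, minus strand) led the class. It measured 2247, 2518 and 2382 normalized reads in WT and 1892, 1774 and 1714 in DKO. Its groups are well apart, with a log2 fold change of -0.41 (SE 0.04, adjusted p 4.1e-09 by limma) that stays inside 1.5-fold. Hist1h2aa, a testis-type H2A gene at the far end of the Hist1 cluster (chr13:23934437-23934913, plus strand), measured 750, 791 and 771 in WT and 658, 590 and 562 in DKO. Again no DKO value reached a WT value, at a log2 fold change of -0.36 (SE 0.06, adjusted p 5.7e-06 by limma). At the other end of the class, Hist3h2a, its most abundant member, stood at 3674 ± 114 and 3661 ± 160 (95% interval -0.07 to 0.06), and Hist1h2ab at 2129 ± 114 and 2073 ± 126. Hist1h2ak, 2949 ± 84.8 in WT and 2759 ± 200 in DKO, passed the test at a log2 fold change of -0.10. Trim17 overlaps the counted body of Hist3h2a, and Gm33516 overlaps both Hist1h2aa and its H2b neighbour Hist1h2ba. The use of strand in counting was not stated, so reads of overlapping genes cannot be told apart.
Summed over the class, H2a reads were 22287, 24594 and 24042 in WT and 22698, 21125 and 19931 in DKO. The groups overlap, since DKO library 1 exceeded WT library 1, and the DKO mean was 89.9% of WT. H2a genes made up 13.1 ± 0.38% of all histone reads in WT and 12.4 ± 0.44% in DKO. Without the H2a genes that have over 50% of windows shared, the log2 ratio of the summed class was -0.14, beside -0.15 with all members. Leaving out single libraries gave log2 ratios of -0.20 to -0.11 for the summed class.

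The H2b class was nearly level. The median log2 fold change was -0.02 over 18 genes, and none was called. By adjusted p 5 of 18 (27.8%) were lower, near the 26.5% of all genes. Hist2h2bb, the most abundant H2b gene, measured 10460, 10455 and 10370 normalized reads in WT and 10778, 10068 and 9677 in DKO. The DKO libraries spanned the WT values, and the 95% interval of the log2 fold change ran from -0.10 to 0.02. Hist1h2bb, next in abundance, stood at 4728 ± 63.7 and 4809 ± 224. Among the H2b genes of at least 100 reads on average, Hist1h2bg and Hist1h2bc had the highest log2 fold changes, 0.06 each, and neither passed the test. Hist1h2ba, a testis-type H2B gene, had the largest decrease of the H2b genes averaging 100 or more normalized reads. It measured 631, 691 and 606 in WT and 513, 501 and 456 in DKO, with no overlap and a log2 fold change of -0.39 (SE 0.06, adjusted p 4.9e-06 by limma). Hist3h2ba measured 807, 781 and 853 in WT and 703, 667 and 720 in DKO. These groups also did not overlap, at a log2 fold change of -0.22, and Gm51864 overlaps the counted body of this gene. The summed class amounted to 98.0% of WT in DKO, with values of 40866, 41549 and 42320 in WT and 42580, 40457 and 39162 in DKO that overlap.

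Among the H3 genes 3 of 12 (25%) were lower by adjusted p, near the 26.5% of all genes. None was called, and the median log2 fold change was -0.07. Hist1h3e, which held the most reads of the class, stood at 5555 ± 262 in WT and 5393 ± 187 in DKO, which did not pass the test. Hist1h3h measured 1942, 2122 and 2133 normalized reads in WT and 1807, 1784 and 1763 in DKO. It had the lowest fold change of the H3 genes with at least 100 normalized reads, and its groups do not overlap (log2 fold change -0.21, SE 0.04, adjusted p 4.2e-05 by limma). Of its 75-base windows, 93.5% also occur in transcripts of other genes, so its reads could have been split among them. Hist1h3d and Hist1h3f were lower, at log2 fold changes of -0.16 and -0.11. Hist1h3a and Hist1h3c were the most level, at -0.01 and 0.00, with 95% intervals of -0.08 to 0.07 and -0.07 to 0.07. In DKO the summed class was 95.4% of WT, and the groups overlap.

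The H4 class held both the member called changed and the 1 member that was higher by adjusted p. Hist2h4 (NM_033596, chr3:96262934-96263317, minus strand) measured 1774, 1653 and 1711 normalized reads in WT and 1208, 1093 and 1113 in DKO. The lowest WT value exceeded the highest DKO value by a wide margin relative to the spread within groups. The log2 fold change was -0.59 (SE 0.04, adjusted p 6.1e-12 by limma), just past the threshold of -0.58 that 1.5-fold sets. The call by size rested on single libraries. It was lost without WT replicate 1 (-0.56), DKO replicate 2 (-0.56) or DKO replicate 3 (-0.58) and when limma tested against a fold change of 1.5, while the adjusted p without each of these libraries was at most 8.8e-10. None of the 75-base windows of the Hist2h4 transcript was found in a transcript of another gene.
Hist4h4 (chr6:136803993-136804431, minus strand) measured 4488, 4778 and 4760 in WT and 4915, 4962 and 4932 in DKO. All DKO values were above all WT values, though the log2 fold change was 0.08 (SE 0.03, adjusted p 0.024 by limma), and the adjusted p was 0.16 without WT replicate 1 and 0.081 without DKO replicate 2. Hist1h4d, the most abundant H4 gene, measured 7882, 8219 and 8312 in WT and 7705, 7937 and 7866 in DKO. These overlap at a log2 fold change of -0.05 (adjusted p 0.086 by limma). Hist1h4h, 5235 ± 90.6 and 5049 ± 60.9, did not pass the test either, and Hist1h4b was lower at -0.12. In all, 4 of 13 H4 genes (30.8%) were lower by adjusted p, beside 26.5% of all genes, with a median of -0.08. The summed class was very even, 43493, 44656 and 44509 in WT and 42099, 42152 and 41912 in DKO, and the DKO mean of 95.1% of WT came without overlap.

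**Figure D2:**
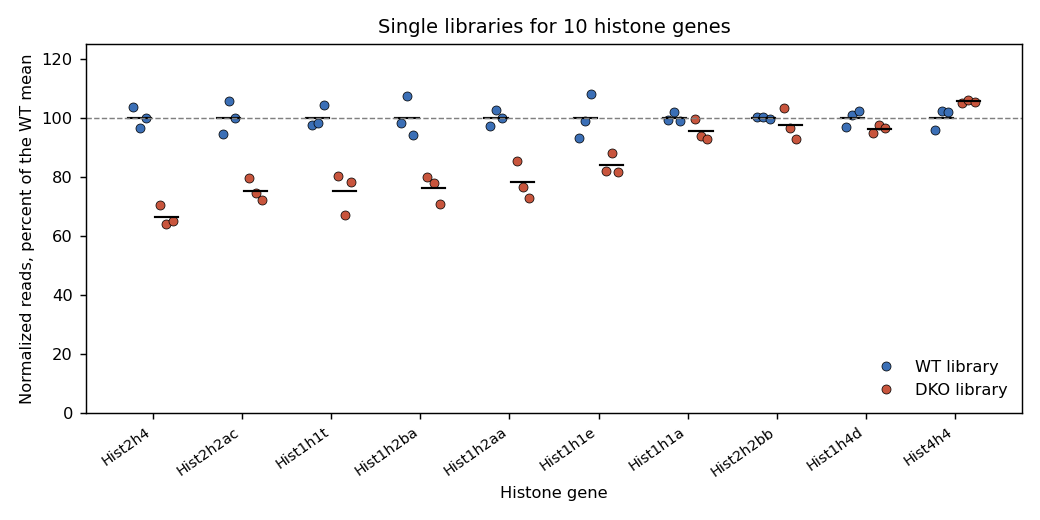
Normalized reads in each library as a percentage of the gene's WT mean (y axis) for 10 histone genes (x axis), with black lines at the group means. The 3 DKO libraries lie below the 3 WT libraries for the 6 genes on the left, overlap WT for Hist1h1a, Hist2h2bb and Hist1h4d, and lie above WT for Hist4h4.

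Within a library, members tended to lie on the same side of their group mean. The share of all genes doing so was not computed. The counts that follow therefore cannot be read as particular to histone genes. WT library 1 lay under the WT mean for 51 of the 56 members with at least 100 normalized reads, and DKO library 3 lay under the DKO mean for 51, while DKO library 1 did so for 8. The H2a and H3 genes followed this without exception in both libraries. All 14 H2a members of that level were under the group mean in WT library 1 and all 14 in DKO library 3, at median levels of 94.0% and 93.4% of the group mean, and DKO library 1 stood at a median of 107%. All 10 H3 members of that level were likewise under the group mean in WT library 1 and in DKO library 3, at medians of 95.2% and 96.6%. The lowest library median of the H4 genes was 98.8% of its group mean. For H2a, H2b and H3 the spread between libraries of a group was wide enough for the class sums of the genotypes to overlap.

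**Figure D3:**
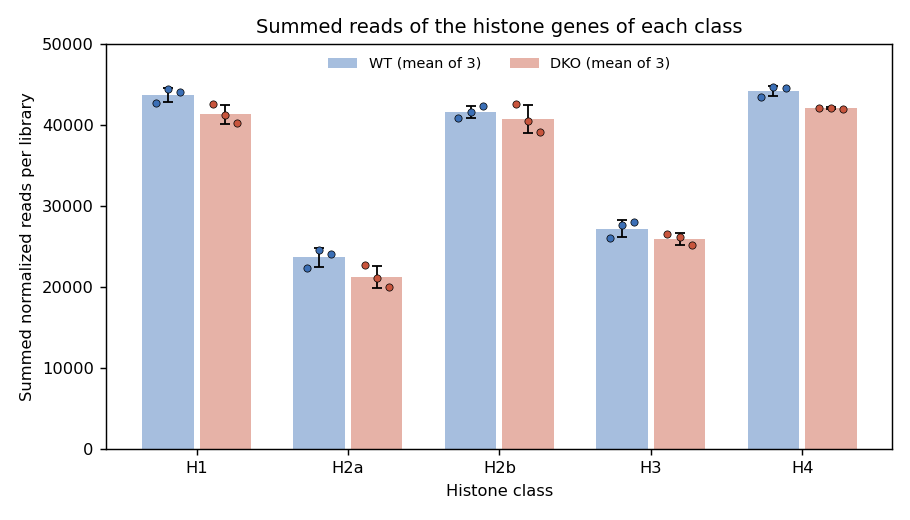
Summed normalized reads of all members of a class (y axis, from 0) by class (x axis), with bars at the mean of 3 libraries, SD error bars and a point per library. DKO means range from 89.9% of WT for H2a to 98.0% for H2b, and the points overlap for H2a, H2b and H3 but not for H1 and H4.

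Position in the genome was compared next. The Hist1 cluster is split by a gap into a block of 23 members (chr13:21715711-22043658) and a block of 31 members (chr13:23531044-23934913). Their median log2 fold changes were -0.09 and -0.07, with 11 (47.8%) and 12 (38.7%) members lower by adjusted p, beside 26.5% of all genes. In the Hist2 cluster 5 of 10 members averaged 100 or more normalized reads, and their median was -0.25. Within this cluster Hist2h4 and Hist2h2ac fell while Hist2h2bb, a near neighbour of Hist2h4, gave a log2 fold change of -0.04. Hist2h2ab and Hist2h3b, named after their values were seen, gave -0.25 and -0.06.

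Many H2a and H2b genes lie head to head and share the DNA between their start sites. Of 13 such pairs within 1000 bases, 12 joined an H2a to an H2b gene and 1 joined Hist1h2bh to Hist1h3f, at distances of 164 to 608 bases. Both members averaged 100 or more normalized reads in 9 of the H2a and H2b pairs. In 8 of these 9 the H2a gene had the lower log2 fold change, with a median difference of -0.14 (range -0.26 to 0.03). The widest gap was between Hist1h2ah, 864 ± 105 in WT and 714 ± 80.9 in DKO, and Hist1h2bk, 3450 ± 73.3 and 3421 ± 167. The groups of Hist1h2ah overlap, since DKO library 1 (804) exceeded WT library 1 (744). The exception was the testis-type pair Hist1h2aa and Hist1h2ba, whose start sites are 281 bases apart and whose log2 fold changes of -0.36 and -0.39 were alike and the lowest of any pair of this level. The annotated gene Gm33516 overlaps both. Most genes of these pairs were named by position and not by size of change. Of the H2a genes in these pairs, Hist1h2ad, Hist1h2ag, Hist1h2ah, Hist1h2ai and Hist1h2an have over 50% of windows shared with other genes. So do the H2b genes Hist1h2bf, Hist1h2bj, Hist1h2bk, Hist1h2bl and Hist1h2bn. How reads were shared out among such genes was not tested, and the pairs do not stand for independent events. In the pairs of Hist1h2ac and Hist1h2ae neither gene exceeds 50% over its whole transcript, and the H2a gene was the lower. The transcript of Hist1h2ac has 2482 bases beside a counted body of 487, so more of its counted body may be shared. Hist1h2ac, Hist1h2bc, Hist1h2ae and Hist1h2bg did not pass limma's test. The differences within pairs were not tested.

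**Figure D4:**
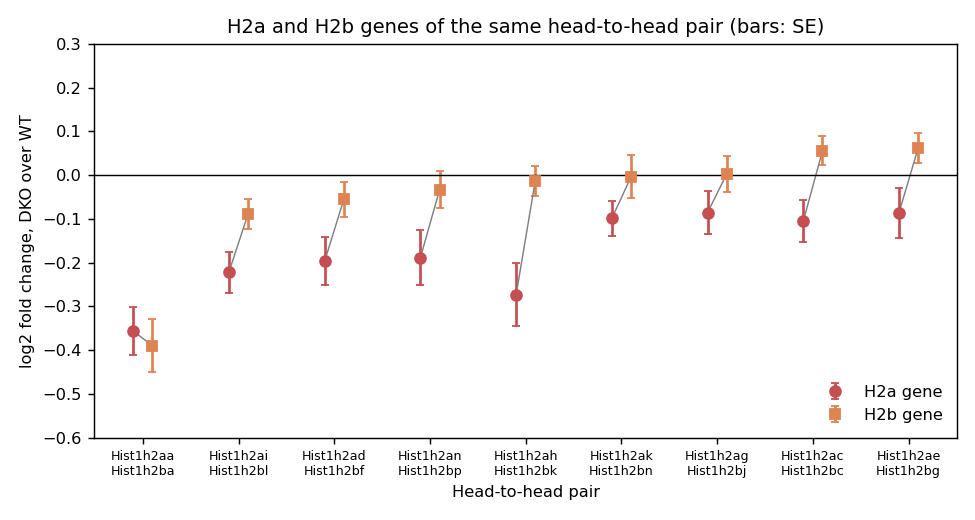
Log2 fold change in DKO over WT (y axis) of the H2a gene (circle) and the H2b gene (square) in the 9 head-to-head pairs with both means at 100 normalized reads or more (x axis). Bars are SEs from limma. The H2a gene is lower in 8 pairs, and in the pair at the left both genes are low.

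Shared sequence features were compared by median and by the share lower by adjusted p, which was 26.5% over all genes. Members with a stem-loop in the annotated transcript had a median log2 fold change of -0.07 (45 genes, 31.1% lower). Those in which none was found had a median of -0.09 (22 genes, 59.1% lower). Of these 22 annotated transcripts, 15 end under 30 bases after the stop codon, 13 of them with no base there. Their lack of a stem-loop is thus not established. Transcripts that go on for 300 bases or more after the stem-loop had a median of -0.10 (18 genes, 38.9% lower). The 27 that end sooner had a median of -0.06 (25.9% lower). H2a and H2b genes with an octamer had a median of -0.04 (13 genes, 30.8% lower), beside -0.10 for the 21 without (57.1% lower). These medians and shares are descriptions over genes that share sequence and, in some pairs, an octamer site. The differences were not tested.

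The 11 members with means under 100 normalized reads could not be resolved well. None of their 95% intervals lay inside 1.5-fold, beside 17.4% of all genes with a mean under 100. Hist2h2be, with 21 to 46 reads per library, had a log2 fold change of -0.59 (95% interval -1.14 to -0.05) and did not pass the test (adjusted p 0.061 by limma). Hist1h2ao and Hist1h2ap passed it, both at -0.39, but hold the same value in every library. In all, 4 pairs of members had identical values, namely Hist1h2ao and Hist1h2ap, Hist1h2bq and Hist1h2br, Hist1h4m and Hist1h4n, and Hist2h3c1 and Hist2h3c2, so the 67 members give 63 distinct profiles. How reads were shared between the genes of such a pair is uncertain.

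Genes that act with the clustered histones were compared from lists, and wherever limma called none of a list neither did edgeR or DESeq2. By adjusted p alone the shares over all genes, 26.5% lower and 26.9% higher, are the background for the counts that follow. For calls the background is 15.4% of all genes, or 10.1% of genes averaging 100 or more normalized reads. With lists this short, few calls would be expected at that share. For the counts at an unadjusted p no share over all genes was computed. Of the genes for histone mRNA transcription and processing, none of the 18 tested was called (13 at an unadjusted p under 0.05), 4 were lower and 6 higher by adjusted p, and the median log2 fold change was -0.01. The U7 RNA gene Rnu7 was listed at about 0 and did not pass the filter for limma. Slbp, the stem-loop binding protein, measured 7651, 8088 and 7866 normalized reads in WT and 7236, 7470 and 7506 in DKO. It was lower without overlap at a log2 fold change of -0.09 (adjusted p 0.0076 by limma). Npat, which switches on histone genes at the start of S phase, stood at 4392 ± 63.7 and 4363 ± 72.6 and did not pass the test. Lsm11, a subunit of the U7 particle, was lower and Zfp473, another U7 partner, higher, at log2 fold changes of -0.29 and 0.30. Among histone chaperones none of 16 was called (10 at an unadjusted p under 0.05), 6 were lower and 2 higher, with a median of -0.04.
Genes of S phase and DNA replication also stayed inside 1.5-fold. None of the 30 tested was called (20 at an unadjusted p under 0.05), 10 were lower and 8 higher by adjusted p, and the median was 0.03. The direction differed within the list. All of Mcm2, Mcm3, Mcm5, Mcm6 and Mcm7, subunits of the replicative helicase, were higher by 0.08 to 0.12 on the log2 scale and Mcm4 (0.04) did not pass, while cyclin E1 (Ccne1) and Rrm2, which makes deoxynucleotides, were lower, at -0.31 and -0.27. Of the genes of G2 and mitosis none of 16 was called (9 at an unadjusted p under 0.05), with 1 lower and 5 higher and a median of 0.05. The summed S phase list spanned 255443 to 264636 normalized reads in WT and 260926 to 263015 in DKO.
Variant histones made outside the clusters, most of them used throughout the cell cycle and made from mRNAs with poly(A) tails, gave 1 call in 11. H2afy, which encodes macroH2A1, measured 386, 370 and 445 normalized reads in WT and 813, 867 and 842 in DKO. All DKO values lay far above all WT values, and H2afy rose with a log2 fold change of 1.07 (SE 0.06, adjusted p 5.3e-14 by limma). Its relative H2afy2 (macroH2A2) was higher by 0.42 without reaching 1.5-fold. H2afv was higher at 0.18, whereas H2afx, H2afj and H3f3a were lower by adjusted p, at -0.11, -0.17 and -0.12. Apart from H2afy, the uncalled genes of these lists were named after their values were seen.

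**Figure D5:**
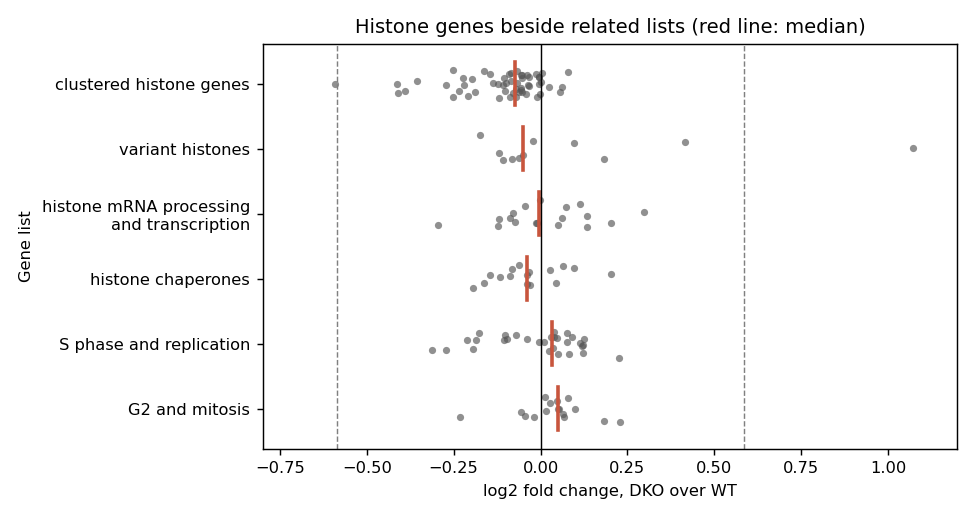
Log2 fold changes in DKO over WT (x axis) of single genes (points) for the 56 histone genes with at least 100 normalized reads and 5 related lists (y axis). Red lines are medians and dashed lines mark 1.5-fold. The histone genes have the lowest median, and H2afy is the 1 point far to the right.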

How the data were processed

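RNA-seq libraries of 3 WT and 3 DKO EpiLC differentiations were analysed (total RNA without ribosomal RNA, stranded, 75 cycles paired end). According to the methods of the study, the authors removed ribosomal reads with bowtie2, aligned to mm10 with STAR, used Samtools to discard PCR duplicates and then counted over refGene gene bodies. Versions, the handling of reads that map to several places and the use of strand were not given in the sources used here. Duplicate removal and multiple mapping matter for short, abundant, near-identical genes. The deposited signal per entry is the count divided by a size factor per library, and a deposited table of the authors' own comparison was not used.

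Whole reads were recovered from the signal by dividing by the value of 1 read, which gave whole numbers (within 0.01) for 100% of values, with size factors of 1.76 to 1.93. Of 33812 rows, 138 had no symbol (0.517% of reads) and were left out. The main test was limma (3.58.1, R 4.3.3) with a variance trend on log2(value + 1), a scale that understates changes of low genes, over 17038 genes that passed filterByExpr of edgeR (4.0.16) on recovered reads. Count tests of edgeR and DESeq2 (1.42.0), other scalings, pseudocounts, filters and leaving out each library were alternatives. The fits were tested on simulated reads.

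The members and gene lists were chosen with earlier results of these data known. In each class the 2 members with the highest mean reads and, among those averaging 100 or more normalized reads, the 2 lowest and 2 highest fold changes were named, with Smad2, Smad3 and called genes of the lists. Named genes outside this rule are marked in the text. The cultures are separate differentiations of 1 line per genotype, so p-values measure the spread between differentiations. Between libraries of a group, recovered counts varied 3.44 to 5.64 times as much as sampling alone would give, so no library appeared to be deposited more than once. Reads carry no molecular identifiers, and SDs cover replicate spread only.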

Additional observations from a re-analysis of the deposited data

How the results depend on the processing

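Over 19 alternatives, which covered the tests of edgeR and DESeq2, scaling, pseudocounts, filters, all entries, the call rule, shared sequence and single libraries, no more than 1 histone gene was called except under adjusted p alone. Class medians and class ratios kept their negative sign under each alternative for which they were computed. Those are fewer, since medians were not recomputed for all entries or the call rules, and ratios only for scaling, member choice, the block and single libraries. Under adjusted p alone 28 genes were called, 27 lower and 1 higher. Testing against a fold change of 1.5 called 0, with 1115 of all genes called, none of the members at an unadjusted p under 0.05, and Hist2h4 at -0.59 with an adjusted p of 1. Of the genes without over 50% shared windows, 17 were lower by adjusted p. Leaving out single libraries gave 0 to 1 called, 0 to 1 lower, 0 to 3 higher and 20 to 30 lower by adjusted p alone, and class medians of -0.101 to -0.0525 for H3 and -0.0954 to -0.0667 for H4. The H2b median, -0.023 with all libraries, was -0.060 without DKO replicate 1 and -0.037 without WT replicate 1, and the H2b summed log2 ratio, -0.030 with all, was -0.063 without DKO replicate 1, -0.0021 without DKO replicate 3 and -0.017 without WT replicate 3. Without DKO replicate 3 the 1 called gene was Hist2h2be. Hist2h4 lost its call without DKO replicate 2 (-0.56), DKO replicate 3 (-0.58) or WT replicate 1 (-0.56).

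Genes with a log2 fold change near 0 changed sign. Hist1h1d (0.00042) turned negative under edgeR (-6.9e-05), DESeq2 (-0.0010), library totals (-0.0049) and TMM factors (-0.00024). Leaving out single libraries gave -0.0213 to 0.0197 for Hist1h1d, -0.0838 to 0.00704 for Hist1h2ab, -0.0137 to 0.0508 for Hist1h2bb, -0.0330 to 0.0281 for Hist1h3a, -0.0223 to 0.0239 for Hist1h3c and -0.0391 to 0.0230 for Hist3h2a. The cause was not tested. With differentiation number as a replicate block, 1 histone gene was called and 27 were lower by adjusted p. Correlations of same-numbered deviations over 11930 genes were 0.0088, -0.029 and 0.037, so the numbers were not treated as a pairing, and the block changed no call of a member.

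Low depth limits the 11 genes with means under 100 normalized reads. Depth does not separate near-identical genes, and how their reads were shared out in mapping was not tested.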
